A study of Mus musculus with 3 samples.

Results

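Long noncoding RNA genes expressed in mouse liver are described here. They are 569 of the 35275 genes in the deposited table, and each reached at least 1 FPKM (fragments normalised to gene length and to all counted fragments) in at least 1 of 3 liver libraries. Members carry a gene type other than protein coding in that table. Pseudogenes, immunoglobulin and T cell receptor segments, mitochondrial genes, genes under 200 bp, and rows named as microRNA, small nucleolar RNA or ribosomal RNA genes were left out, as were 2 further genes that are not described. The rule left 5308 genes before the level was applied. Members were selected on their FPKM in these same libraries, so their levels are given as a description.

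The libraries came from livers of male C57BL/6 mice aged 10 weeks at the start of feeding, with 1 library per group. The TH-treated NASH mouse group ate a western diet with liquid fructose for 16 weeks and then received the thyroid hormones T3 (35 ng/g) and T4 (7 ng/g) in 15% fructose drinking water for 8 weeks more. The NASH group ate the same diet without hormone and is labelled as 24 weeks of diet. The control group ate normal chow. NASH stands for nonalcoholic steatohepatitis, a fatty liver with inflammation, and was induced here by diet. It is not stated how many animals went into each library.

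Poly(A) RNA was sequenced, and 38303410 fragments in the TH-treated NASH library, 47009255 in the NASH library and 54576236 in the control library could be recovered from the deposited values. With no second library in any group, no test of a group difference could be made, and every difference below is one between libraries. Intervals cover counting error only, and fragments copied by PCR are not independent molecules. Each library carried all 10 listed hepatocyte genes, with summed levels of 36971 FPKM in TH-treated NASH, 37616 FPKM in NASH and 54084 FPKM in control. Macrophage genes (11 of 11 at 1 FPKM or more in some library) summed to 663, 467 and 159 FPKM in the same order. The sum of TH-treated NASH was raised by Clec4f, Cd5l and Marco, while only 5 of the 11 were higher there than in NASH and the median log2 difference was -0.15. Gpnmb, for one, had 0.124, 5.19 and 0.0290 FPKM. Neutrophil genes (6 of 7, with Ly6g at 0 in control) summed to 98.6, 8.87 and 4.70 FPKM, and erythroid genes (5 of 6) to 1757, 391 and 316 FPKM. The erythroid sums are mostly haemoglobin genes, and Alas2 of the same list had 22.8, 44.3 and 60.5 FPKM. In whole liver, more cells of a type and more RNA per cell cannot be told apart.

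Long noncoding RNAs are transcribed by RNA polymerase II and often spliced and polyadenylated, but they code for no known protein. Some build nuclear bodies, some carry microRNAs or small nucleolar RNAs (snoRNAs) in their introns, and many run antisense to a coding gene and may act on it or may share its regulatory DNA. Thyroid hormone acts in hepatocytes mainly through the nuclear receptor TR-beta, which binds pairs of the half-site AGGTCA with a retinoid X receptor partner.

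Promoter sequences are shown for 2 questions that the levels below raise. The first concerns host genes of snoRNAs, whose transcripts often begin with a 5′ terminal oligopyrimidine (TOP) run, a start also used by ribosomal protein genes. The motif searched was a C followed by at least 4 bases that are each C or T, on the gene's strand, beginning within 10 bases of the RefSeq start. Each window below runs from 50 bases before to 50 bases after that start, from RefSeq on GRCm38.p6, 5′ to 3′ on the gene's strand, and capitals mark the run. Snhg3, Snhg5 and Snhg12 hold it, while Snhg1 and Gas5 hold none in these positions. Snhg18, which was lower in TH-treated NASH than NASH, and the row named Snhg7, whose level differed little, hold it too.
Snhg3 (chr4:132353637-132353736, minus strand): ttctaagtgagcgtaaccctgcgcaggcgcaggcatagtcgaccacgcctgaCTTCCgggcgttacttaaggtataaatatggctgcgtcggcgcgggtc
Snhg5 (chr9:88522848-88522947, minus strand): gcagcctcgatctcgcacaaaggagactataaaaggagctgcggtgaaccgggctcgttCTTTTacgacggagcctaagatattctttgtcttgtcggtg
Snhg12 (chr4:132308628-132308727, plus strand): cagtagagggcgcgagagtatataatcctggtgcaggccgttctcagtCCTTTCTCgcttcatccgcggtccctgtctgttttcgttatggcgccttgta
Snhg1 (chr19:8723437-8723536, plus strand): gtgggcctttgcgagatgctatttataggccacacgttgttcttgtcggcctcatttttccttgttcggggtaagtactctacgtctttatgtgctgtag
Gas5 (chr1:161034551-161034650, plus strand): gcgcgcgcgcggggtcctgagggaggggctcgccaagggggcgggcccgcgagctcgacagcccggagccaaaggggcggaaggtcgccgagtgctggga
The run was found in 5 of 11 snoRNA host members that had a RefSeq promoter within 500 bases of their deposited start, or 45.45%. It was found in 36.25% of the 240 members with such a promoter and in 30.72% of all 32851 RefSeq promoters. The RefSeq start of Gas5 lay 179 bases from the deposited one, that of Snhg5 32 bases and that of Snhg1 9 bases, so the position of the run depends on which start is used.

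The second set shows the AGGTCA half-site in members whose levels differed 2-fold between TH-treated NASH and NASH. The half-site was searched on both strands in the 300 bases from 250 before to 50 after the RefSeq start. It was present in 1 of 8 members higher and 1 of 8 members lower in TH-treated NASH among those with a promoter. These are 9430037G07Rik, which was higher, and Gm12909, which was lower. Capitals mark AGGTCA or its reverse complement TGACCT.
9430037G07Rik (chr9:88599194-88599493, minus strand): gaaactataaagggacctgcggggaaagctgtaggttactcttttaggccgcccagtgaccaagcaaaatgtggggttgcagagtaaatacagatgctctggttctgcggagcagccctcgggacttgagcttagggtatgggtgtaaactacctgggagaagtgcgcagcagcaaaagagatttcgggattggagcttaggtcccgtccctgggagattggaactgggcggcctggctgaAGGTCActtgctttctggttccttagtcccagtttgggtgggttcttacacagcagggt
Gm12909 (chr4:62088033-62088332, plus strand): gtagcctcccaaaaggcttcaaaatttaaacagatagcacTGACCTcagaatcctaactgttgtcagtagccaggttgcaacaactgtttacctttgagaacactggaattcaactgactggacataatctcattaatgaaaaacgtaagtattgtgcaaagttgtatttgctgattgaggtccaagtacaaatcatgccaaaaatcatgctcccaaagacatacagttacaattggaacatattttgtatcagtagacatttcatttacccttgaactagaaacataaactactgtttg
The half-site occurred in 39 of 240 member promoters (16.25%) and in 16.26% of all promoters. The half-site repeated in the same direction after any 4 bases was in none of the 240 and in 5 of all 32851. A match is a match of letters only. The RefSeq start of 9430037G07Rik lay 273 bases from its deposited start and that of Gm12909 5 bases.

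Most members were scarce. By their highest level, 219 members lay between 1 and 2 FPKM, 189 between 2 and 5 FPKM, 118 between 5 and 20 FPKM, 39 between 20 and 100 FPKM and 4 above that. The median member level was 1.97 FPKM in TH-treated NASH, 2.06 FPKM in NASH and 1.94 FPKM in control. The median of the 10953 protein-coding genes that met the same level was 6.71, 6.86 and 6.11 FPKM in the same order. Members had a median length of 925 bp against 3000 bp for those coding genes, and their median fragment count was 81, 110 and 118 in the 3 libraries, which limits the precision of the scarcer ones. All members together took 0.694% of fragments in TH-treated NASH, 0.632% in NASH and 0.558% in control. Without Yam1 and Gm26917, which lie at a ribosomal RNA repeat and may count its reads, the shares were 0.539%, 0.526% and 0.436%. These shares still hold Gm10680, which alone had 22878 fragments in TH-treated NASH, 37361 in NASH and 2248 in control. Since 90.0% of its exon length lies over Apoa4 exons, it may count reads of Apoa4. Shares without Gm10680 were not computed.

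The deposited types split the members into 265 antisense, 173 lincRNA, 122 processed transcript, 8 sense intronic genes and 1 sense overlapping gene. GENCODE M21 held 542 of them by gene ID and gave 13 a protein-coding or pseudogene type, among them 2210013O21Rik, now Nbdy, which encodes a microprotein. Members at 1 FPKM or more in all 3 libraries numbered 346, in 2 libraries 102 and in 1 library 121. Of those 121, TH-treated NASH alone admitted 39, NASH alone 54 and control alone 28. The last 3 genes admitted were Gm10804 with 1.004 FPKM in control, 1700034P13Rik with 1.002 FPKM in NASH and Gm12868 with 1.002 FPKM in TH-treated NASH. Just outside lay Gm26885 and Nudt12os, whose highest levels were 0.999 and 0.997 FPKM, and Gm26642 at 0.995 FPKM.

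Of the 12 most abundant members, 3 passed 2-fold in some comparison, among them Gm10680 and 1810019D21Rik, which are given with the comparisons. Yam1 had 830 FPKM in TH-treated NASH, 559 FPKM in NASH and 642 FPKM in control. Malat1, a nuclear RNA of splicing speckles, had 47.8, 52.3 and 51.0 FPKM in that order, and its library ratios stayed within 1.10-fold. B430119L08Rik, antisense to the protease inhibitor gene Serpina1c, had 259, 153 and 237 FPKM. Il1rap, the interleukin-1 receptor accessory gene, is overlapped by Gm20319, which had 55.1, 102 and 85.5 FPKM. Levels of 0610005C13Rik were 97.0, 76.0 and 81.6 FPKM, and those of Gm20528, which crosses 10 coding genes in the Ugt1a cluster of glucuronidation enzymes, were 65.6, 59.3 and 68.1 FPKM. Gm26917 had 28.4, 40.2 and 44.8 FPKM, Sardhos, antisense to the sarcosine dehydrogenase gene Sardh, 41.7, 32.6 and 39.0 FPKM, and Gm11789, within the span of the glucagon receptor gene Gcgr, 39.9, 38.01 and 32.0 FPKM. In GENCODE M21, coding exons cover 86.8% of the exon length of Gm20528, 70.9% of Sardhos, 49.1% of Gm20319 and 21.5% of B430119L08Rik. Reads in these exons cannot be assigned to 1 gene, since the strand setting of the counting is not given.

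**Figure D1:**
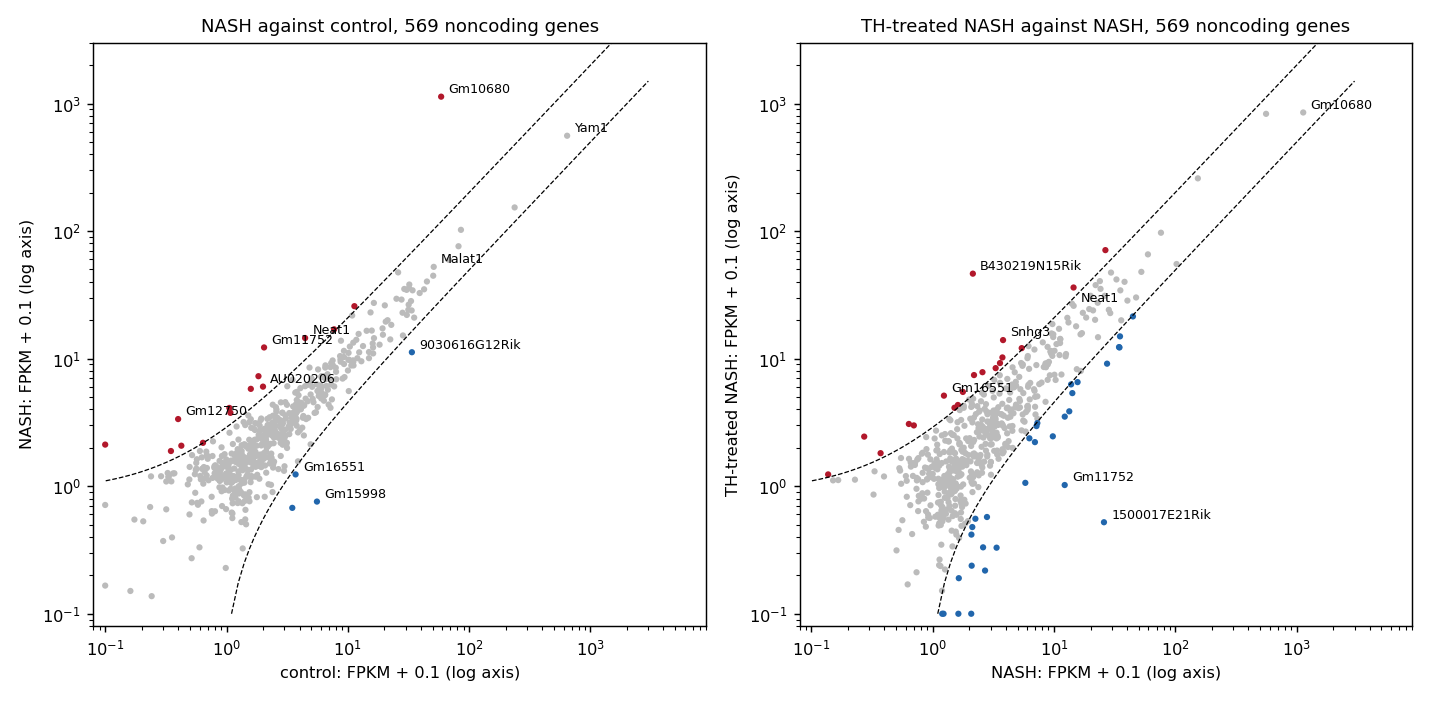
FPKM of the 569 noncoding genes (plus 0.1, log axes) in NASH against control (left) and in TH-treated NASH against NASH (right). Each point is 1 gene in 1 library per group, dashed lines are 2-fold on the log2(FPKM + 1) scale, red is higher and blue lower. In the left panel 15 genes lie above and 4 below the lines, and in the right panel 19 above and 31 below.

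In NASH liver, 15 members exceeded control 2-fold or more and 4 were below it to the same degree. Gm10680, annotated antisense to Apoa4, and Gm11752 were the highest, and Neat1 was among the others. Among all 11835 genes at 1 FPKM or more, 3.24% were higher and 0.752% lower by the same measure, which is a 2-fold ratio of FPKM + 1. The members' shares, 2.64% and 0.703%, were near that background. The median log2(FPKM + 1) difference was 0.07 over members and 0.12 over all genes. Rescaling by the trimmed mean of M values (TMM) lowered the all-gene median by 0.18 on the log2 scale and changed the split of members to 12 higher and 8 lower, and that of all genes to 279 and 147.

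Gm10680 (ENSMUSG00000074373, chromosome 9, 46242621 to 46243529, minus strand) lies antisense to Apoa4, the apolipoprotein A-IV gene of lipid transport. Positions are those of the deposited table, whose genome build the sources used here do not name. Its level was 851 FPKM in TH-treated NASH, 1132 FPKM in NASH and 58.7 FPKM in control, so both western-diet libraries stood far above control. NASH exceeded control 19.3-fold (95% counting interval 18.5 to 20.1). Apoa4 itself had 1701, 2919 and 155 FPKM in that order. In GENCODE M21, 90.0% of the exon length of Gm10680 lies over Apoa4 exons. The strand setting of the counting is not given, so reads of the 2 genes cannot be told apart.

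Neat1 (ENSMUSG00000092274, chromosome 19, 5824708 to 5845478), the scaffold RNA of nuclear paraspeckles, had 25.8 FPKM in TH-treated NASH, 14.4 FPKM in NASH and 4.35 FPKM in control. It overlaps no coding gene. The values are per gene, from poly(A) RNA, and do not separate its isoforms. NASH was 3.32-fold above control (3.21 to 3.43), and TH-treated NASH was 1.79-fold above NASH (1.76 to 1.83). Of the other nuclear-body RNAs listed, Malat1 was near 1-fold throughout and Miat did not reach 1 FPKM.

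Among the other members higher in NASH was Gm12750, called Ttc39aos1 in GENCODE M21 and known as lincRNA-EPS, an RNA that restrains immune genes in mouse macrophages. It had 0.230 FPKM in TH-treated NASH, 3.26 FPKM in NASH and 0.299 FPKM in control, that is 7, 122 and 13 fragments, and NASH was 10.9-fold above control (6.14 to 21.1). Ttc39a, which starts 468 bp away on the other strand, had 1.70, 4.20 and 0.288 FPKM. B430212C06Rik overlaps Cidea, whose protein enlarges lipid droplets, and had 0.378, 2.02 and 0 FPKM, against 1.05, 43.5 and 0.346 FPKM for Cidea. With 0 fragments in control, the counting interval of the NASH to control ratio of B430212C06Rik began at 77.8-fold and had no upper end. RP23-184B11.6, antisense to the G-protein signalling regulator Rgs16, had 3.02, 7.18 and 1.73 FPKM, and Rgs16 had 66.8, 80.2 and 21.7 FPKM. Hotairm1, a HOXA-cluster RNA described in myeloid cells, had 0.952, 2.09 and 0.540 FPKM. Macrophage genes summed to 467 FPKM in NASH and 159 FPKM in control. Of 5 listed adipose genes, Cidec and Fabp4 reached 1 FPKM and made up nearly all of the list's sums of 38.2 FPKM in TH-treated NASH, 112 FPKM in NASH and 14.8 FPKM in control. The adipocyte genes Adipoq, Plin1 and Lep were near 0 in NASH too, at 0.0659, 0.0333 and 0.0131 FPKM. The part of macrophages in these values was not tested. Of 10 listed immune RNAs, 8 were found by name among the deposited genes. Members among them were 2, Gm12750 and Gm14005, and Gm14005 had 0.958, 1.06 and 0.976 FPKM. AW112010 of that list is typed protein coding and so is not a member. It had 112.7 FPKM in TH-treated NASH, 89.8 FPKM in NASH and 71.9 FPKM in control.

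Other NASH-high members have no established role. Gm11752, within Tbc1d16, had 0.921 FPKM in TH-treated NASH, 12.14 FPKM in NASH and 1.94 FPKM in control, and NASH was 6.26-fold above control (4.67 to 8.53). It was low in TH-treated NASH and control and high in NASH alone. Gm11695 had 0.962, 5.70 and 1.49 FPKM and Gm17196 had 2.50, 4.01 and 0.956 FPKM in the same order. Snhg18, a snoRNA host that starts 151 bp from Sema5a, had 1.85, 3.66 and 0.977 FPKM and was 3.75-fold higher in NASH than control (2.90 to 4.89). AU020206 had 9.99, 5.93 and 1.90 FPKM and was 3.12-fold higher in NASH than control (2.35 to 4.19).

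The 4 members lower in NASH were Gm15998, 9030616G12Rik, Gm15611 and Gm16551. Gm15998, antisense to the ephrin gene Efna3, had 0.538 FPKM in TH-treated NASH, 0.658 FPKM in NASH and 5.47 FPKM in control, so NASH was 8.31-fold lower (6.32 to 11.1). 9030616G12Rik, which overlaps no coding gene, had 14.2, 11.1 and 33.6 FPKM, and NASH was 3.02-fold lower (2.67 to 3.42). Gm15611, next to the peroxisomal gene Crot, had 0.322, 0.576 and 3.39 FPKM. For these 3 members control was the one high library. Gm16551, reported as a regulator of lipid synthesis genes in mouse liver, had 5.03, 1.14 and 3.61 FPKM. NASH was the low library for Gm16551, 3.18-fold below control (2.68 to 3.79), and TH-treated NASH was 4.42-fold above NASH (3.72 to 5.28).

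**Figure D2:**
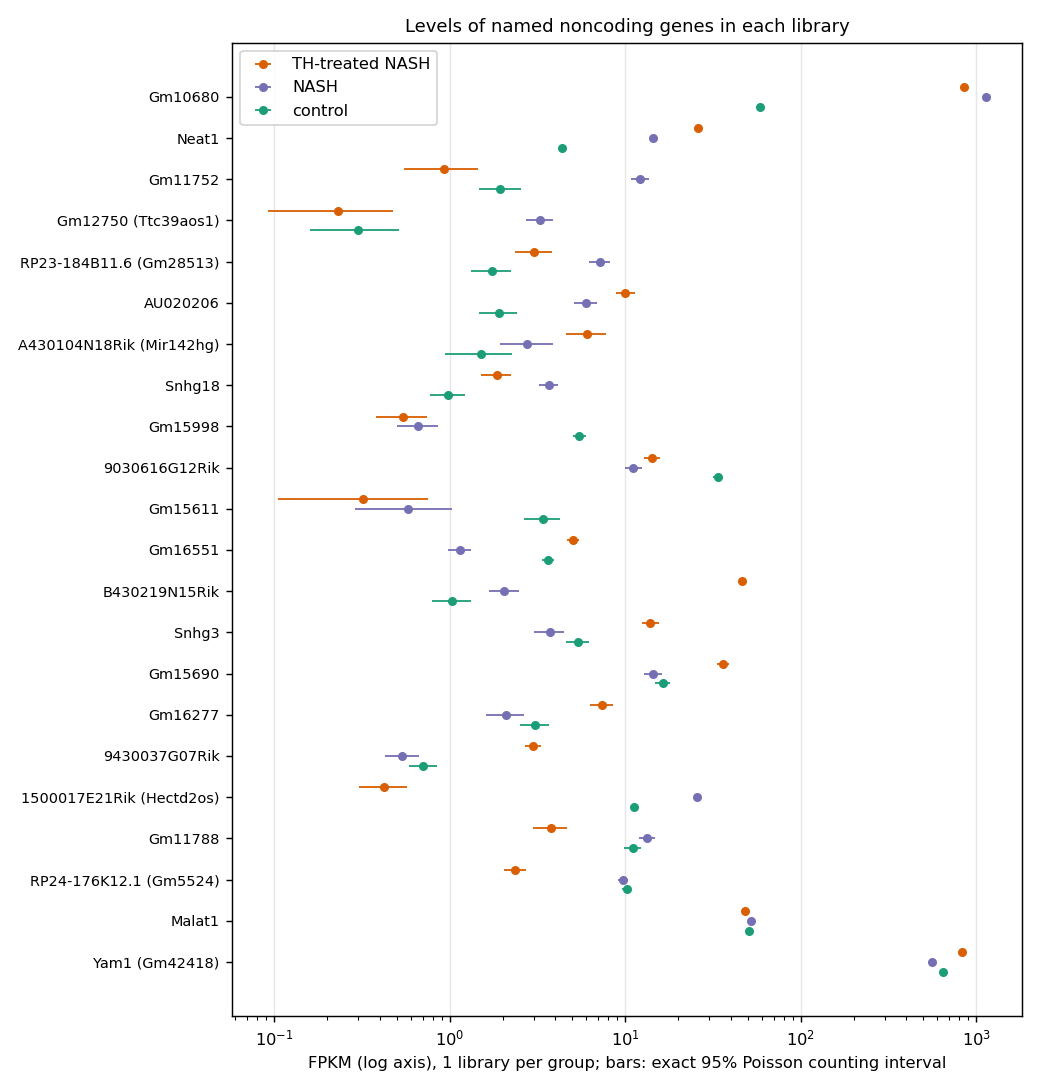
FPKM (log axis) of 22 named noncoding genes in TH-treated NASH (orange), NASH (purple) and control (green), 1 library each. Bars are exact 95% Poisson counting intervals. Gm10680 lies at 851 and 1132 FPKM in the western-diet libraries and at 58.7 FPKM in control, and B430219N15Rik at 46.3 FPKM in TH-treated NASH against 2.04 FPKM in NASH.

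In TH-treated NASH liver, 19 members exceeded NASH liver 2-fold or more and 31 were below it to the same degree. Of all genes, 2.7% were higher and 2.75% lower, against 3.34% and 5.45% of members. B430219N15Rik stood highest and 1500017E21Rik lowest. The median log2 difference was -0.07 over members and -0.04 over all genes.

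B430219N15Rik (ENSMUSG00000085211, chromosome 10, 7780185 to 7781357, plus strand), antisense to the membrane glycoprotein gene Ginm1, had 46.3 FPKM in TH-treated NASH, 2.04 FPKM in NASH and 1.03 FPKM in control. These stand for 1959, 106 and 62 fragments. TH-treated NASH was 22.7-fold above NASH (18.7 to 27.9), and its level stood alone above those of both untreated libraries. Ginm1 had 62.4, 33.0 and 23.7 FPKM, a difference of under 2-fold between TH-treated NASH and NASH. Exons of Ginm1 cover 13.4% of the exon length of B430219N15Rik.

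Other members were high in TH-treated NASH and low in both untreated libraries. Gm15690, antisense to the serine dehydratase gene Sds, had 36.0 FPKM in TH-treated NASH, 14.4 FPKM in NASH and 16.3 FPKM in control, with 344, 164 and 176 FPKM for Sds in that order. Gm16277, antisense to the neurotrophic factor receptor gene Gfra1, had 7.34, 2.09 and 3.05 FPKM. Gm27252, inside Klf13, had 7.73, 2.47 and 2.53 FPKM, while Klf13 had 9.81, 8.44 and 10.5 FPKM. The intergenic 9430037G07Rik, whose promoter is shown above, had 2.98, 0.536 and 0.704 FPKM and was 5.55-fold higher in TH-treated NASH than NASH (4.35 to 7.17). Gm20621, with 2.35, 0.172 and 0.416 FPKM, and Abhd11os, with 2.90, 0.599 and 0.819 FPKM, were also past 2-fold. GENCODE M21 types Abhd11os as a transcribed unitary pseudogene.

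The lowest member in TH-treated NASH was 1500017E21Rik (ENSMUSG00000087579, chromosome 19, 36614052 to 36705641, minus strand), named Hectd2os in M21 for its place antisense to the ubiquitin ligase gene Hectd2. It had 0.422 FPKM in TH-treated NASH, 25.7 FPKM in NASH and 11.2 FPKM in control, from 43, 3215 and 1632 fragments. TH-treated NASH was 60.9-fold below NASH (45.1 to 84.4) and 26.6-fold below control (19.7 to 37.0). NASH in turn was 2.29-fold above control (2.15 to 2.43), which is 1.13 on the log2(FPKM + 1) scale and 0.92 after TMM scaling. Hectd2 stayed at 0.817, 0.989 and 0.860 FPKM.

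Further members were lower in TH-treated NASH than in both untreated libraries. Gm15622, antisense to the betaine-homocysteine methyltransferase gene Bhmt, had 12.14 FPKM in TH-treated NASH, 34.5 FPKM in NASH and 30.4 FPKM in control, with 426, 799 and 623 FPKM for Bhmt. Gm11788, antisense to the mitochondrial dicarboxylate carrier gene Slc25a10, had 3.76, 13.3 and 10.99 FPKM. Gm12909, which starts 946 bp from the major urinary protein gene Mup3, had 3.41, 12.2 and 16.1 FPKM, and Mup3 had 4462, 6719 and 9205 FPKM. Gm14573, antisense to the histone deacetylase gene Hdac11, had 0.232, 2.50 and 1.99 FPKM beside 10.4, 32.1 and 27.4 FPKM for Hdac11. RP24-176K12.1, called Gm5524 in M21 and far from any coding gene, had 2.36, 9.67 and 10.2 FPKM, 4.10-fold lower in TH-treated NASH than NASH (3.49 to 4.83).

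The members named above as higher in NASH than control had these ratios between TH-treated NASH and NASH. Gm11752 was 13.2-fold lower in TH-treated NASH than NASH (8.19 to 22.5), Gm12750 was 14.2-fold lower (6.69 to 36.1) and Gm11695 was 5.92-fold lower (3.44 to 10.9). B430212C06Rik was 5.34-fold lower (3.78 to 7.72). Gm10680 was 1.33-fold lower (1.31 to 1.35), short of 2-fold, while Neat1 and AU020206 were higher in TH-treated NASH, AU020206 by 1.68-fold (1.39 to 2.05). RP23-184B11.6 was 2.38-fold lower, with a log2(FPKM + 1) difference of -1.02 that became -0.99 after TMM scaling. Both comparisons use the NASH library, so a high value there enters both.

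Host genes of snoRNAs, whose introns give rise to guides for ribosomal RNA modification, were mostly above 1-fold in TH-treated NASH. The 23 listed hosts matched 21 genes by name, of which 14 were members. Of these 14, 10 had a positive log2 difference between TH-treated NASH and NASH, beside 5474 of all 11835 genes. The median of the 14 was 0.27, beside -0.04 over all genes. Past 2-fold there was 1 member, Snhg3, beside 2.7% of all genes. The listed hosts Snhg11 and 1500012F01Rik, now Zfas1, are typed protein coding and so are not members. Snhg11 went the other way past 2-fold, with 0.227 FPKM in TH-treated NASH, 1.90 FPKM in NASH and 3.94 FPKM in control. Its log2 difference between TH-treated NASH and NASH was -1.24. Levels of 1500012F01Rik were 5.73, 4.91 and 5.21 FPKM in that order. Snhg3 (chromosome 4, 132348014 to 132353686) had 13.9 FPKM in TH-treated NASH, 3.70 FPKM in NASH and 5.36 FPKM in control, from 309, 101 and 170 fragments, and TH-treated NASH was 3.76-fold above NASH (2.99 to 4.75). It starts 81 bp from Rcc1 on the same strand, and Rcc1 had 4.11, 3.97 and 3.21 FPKM.

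Snhg1 had 6.71 FPKM in TH-treated NASH, 3.11 FPKM in NASH and 3.51 FPKM in control, a 2.16-fold ratio of TH-treated NASH to NASH (1.90 to 2.44) that is 0.91 on the log2(FPKM + 1) scale. Snhg5 had 8.45, 4.45 and 5.11 FPKM, and Gas5, a growth-arrest RNA degraded during translation, had 31.0, 19.9 and 21.2 FPKM. Snhg12 had 14.7, 9.74 and 9.996 FPKM, and 2410004N09Rik, now Epb41l4aos, had 22.8, 17.2 and 19.2 FPKM. In these 5 hosts and Snhg3 the TH-treated NASH library was highest and the 2 untreated libraries lay closer to each other. Snhg6 differed less, with 13.2, 11.1 and 12.3 FPKM. Snhg18 went the other way, with TH-treated NASH 1.98-fold below NASH (1.57 to 2.51). Between NASH and control the median log2 difference of the 14 hosts was -0.06, and Snhg18 was the 1 of 14 past 2-fold, beside 3.24% of all genes higher. The row named Snhg7 carries a gene ID that M21 gives to the snoRNA Snora43.

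**Figure D3:**
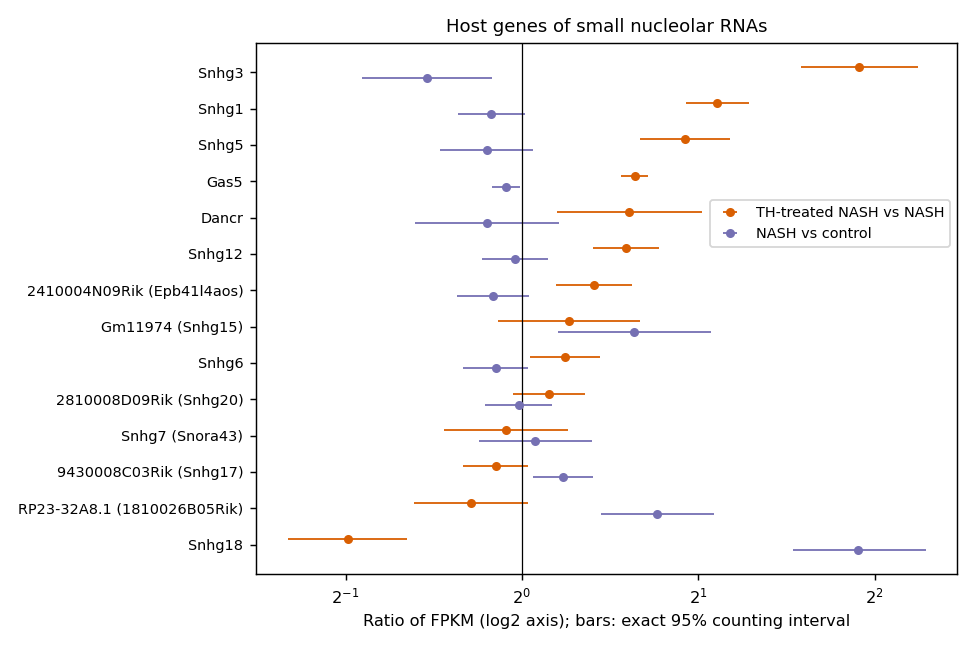
Ratio of FPKM (log2 axis) for 14 snoRNA host genes, TH-treated NASH over NASH (orange) and NASH over control (purple). Bars are exact 95% counting intervals from 1 library per group. Snhg3 lies at 3.76 for TH-treated NASH over NASH and Snhg18 at 3.75 for NASH over control.

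In TH-treated NASH, 36 members exceeded control 2-fold or more and 28 were below it to the same degree. Of all genes, 5.4% were higher and 2.35% lower, against 6.33% and 4.92% of members. The split among members changed with the scaling, to 26 higher and 38 lower after TMM, 27 and 38 after median-of-ratios scaling, and 31 and 32 without the 50 most abundant genes. Of all genes, 639 were higher and 278 lower as deposited, 476 and 407 after TMM, 486 and 394 after median-of-ratios scaling, and 550 and 319 without the 50 most abundant. TMM lowered the all-gene median by 0.15 on the log2 scale.

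B430219N15Rik, Gm10680 and Neat1 led the members above control, and a host gene of a blood-cell microRNA was among them. A430104N18Rik, called Mir142hg in M21, is the host of miR-142. It had 6.02 FPKM in TH-treated NASH, 2.77 FPKM in NASH and 1.499 FPKM in control, and TH-treated NASH was 4.02-fold above control (2.43 to 6.86). AI662270, near the Schlafen gene Slfn3, had 4.86, 3.08 and 1.28 FPKM, and AU020206 was 5.26-fold above control (4.01 to 6.98). These 3 members were ordered alike, with TH-treated NASH highest and control lowest. The summed macrophage list was ordered alike, at 663, 467 and 159 FPKM, though 5 of its 11 genes were higher in TH-treated NASH than NASH and the others lower. The neutrophil list summed to 98.6, 8.87 and 4.70 FPKM. B and plasma cell genes (3 of 5 at 1 FPKM or more in some library) summed to 108, 19.4 and 15.1 FPKM, most of it Ighm at 104, 16.4 and 13.8 FPKM. The part of these cells in the members' values was not tested.

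Other members above control were Gm26716, Gm17066, Gm13203 and Gm13056. Gm26716, whose exons lie wholly over those of the syndecan gene Sdc3, had 6.35 FPKM in TH-treated NASH, 3.49 FPKM in NASH and 1.41 FPKM in control, beside 33.4, 22.2 and 9.79 FPKM for Sdc3. Gm17066 had 11.99, 5.31 and 3.59 FPKM in the same order. Gm13203 had 3.26, 1.27 and 0.529 FPKM and Gm13056 had 2.18, 1.17 and 0.227 FPKM. Gm15690, Gm16277 and Abhd11os passed 2-fold over control as deposited and fell short of it after TMM scaling, with log2 differences of 0.91, 0.89 and 0.996.

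The members furthest below control, after 1500017E21Rik and Gm15998, included several antisense to enzyme genes. Gm15883, antisense to the cytochrome P450 gene Cyp2f2, had 5.27 FPKM in TH-treated NASH, 14.1 FPKM in NASH and 22.3 FPKM in control, and TH-treated NASH was 4.23-fold below control (3.77 to 4.76). Cyp2f2 had 240, 451 and 629 FPKM. Gm11586, antisense to Nags, whose enzyme makes the activator of the urea cycle, had 2.86, 7.07 and 9.29 FPKM, and Nags had 20.03, 25.1 and 32.4 FPKM. Gm15962, over Keg1, had 0.348, 1.33 and 2.91 FPKM, and Keg1 had 9.26, 31.6 and 69.4 FPKM. 0610031O16Rik, antisense to the alcohol dehydrogenase gene Adh7, had 14.9, 34.9 and 42.4 FPKM while Adh7 had 2.33, 1.07 and 1.69 FPKM. 1810064F22Rik had 0.317, 1.47 and 3.78 FPKM, and 1810019D21Rik, antisense to the splicing regulator gene Esrp2, had 21.3, 44.6 and 50.5 FPKM. In each of these 6 members TH-treated NASH was lowest and control highest.

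The share of members past 2-fold was smaller at low levels, which the rule itself favours. With 1 FPKM added to both values, a scarce gene needs a larger FPKM ratio to be called. Members are therefore set beside all genes of the same level. At 5 FPKM or more in some library there were 161 members and 7149 genes. There, 7.45% of members were higher and 11.2% lower in TH-treated NASH than NASH, beside 3.47% and 3.29% of genes. For TH-treated NASH over control the shares were 13% and 11.2% of members beside 6.08% and 3.05% of genes, and for NASH over control 4.97% and 1.86% beside 3.51% and 1.15%. Between 1 and 5 FPKM there were 408 members and 4686 genes. Here 1.72% of members were higher and 3.19% lower in TH-treated NASH than NASH, beside 1.54% and 1.92% of genes. For TH-treated NASH over control these shares were 3.68% and 2.45% beside 4.35% and 1.28%, and for NASH over control 1.72% and 0.245% beside 2.82% and 0.149%.

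Among the 346 members at 1 FPKM or more in all 3 libraries, which no single high library admitted, 14 were higher (4.05%) and 15 lower (4.34%) in TH-treated NASH than NASH, beside 2.28% and 2.17% of the 10144 genes that met that limit. For TH-treated NASH over control, 23 were higher (6.65%) and 16 lower (4.62%), beside 4.37% and 2.06% of genes. For NASH over control, 5 were higher (1.45%) and 2 lower (0.578%), beside 2.45% and 0.759%.

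Another rule asks that the whole counting interval of the FPKM ratio lie past 2-fold. It adds no pseudocount, so it takes in scarce members that the log2(FPKM + 1) rule leaves out, and it called more members in each comparison. In TH-treated NASH over NASH it did so for 22 members higher and 34 lower (3.87% and 5.98%), beside 2.86% and 3.42% of all genes. In TH-treated NASH over control it did for 46 and 38 members (8.08% and 6.68%), beside 7.25% and 2.78%, and in NASH over control for 28 and 6 members (4.92% and 1.05%), beside 5.5% and 0.853%. At 5 FPKM or more the shares of members were 6.83% and 8.7% for TH-treated NASH over NASH, beside 3.19% and 3.18% of genes. They were 9.94% and 11.2% for TH-treated NASH over control, beside 5.67% and 2.88%, and 4.35% and 1.86% for NASH over control, beside 3.64% and 1.16%. At 1.5-fold on the log2(FPKM + 1) scale, 15.1% of members were higher and 17% lower in TH-treated NASH than NASH, beside 8.42% and 9.02% of genes. For TH-treated NASH over control these were 17% and 16% beside 15.5% and 6.86%, and for NASH over control 10.2% and 4.75% beside 10.3% and 2.53%. Members are shorter and carry fewer fragments than coding genes, and the part of counting error in these differences was not tested.

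**Figure D4:**
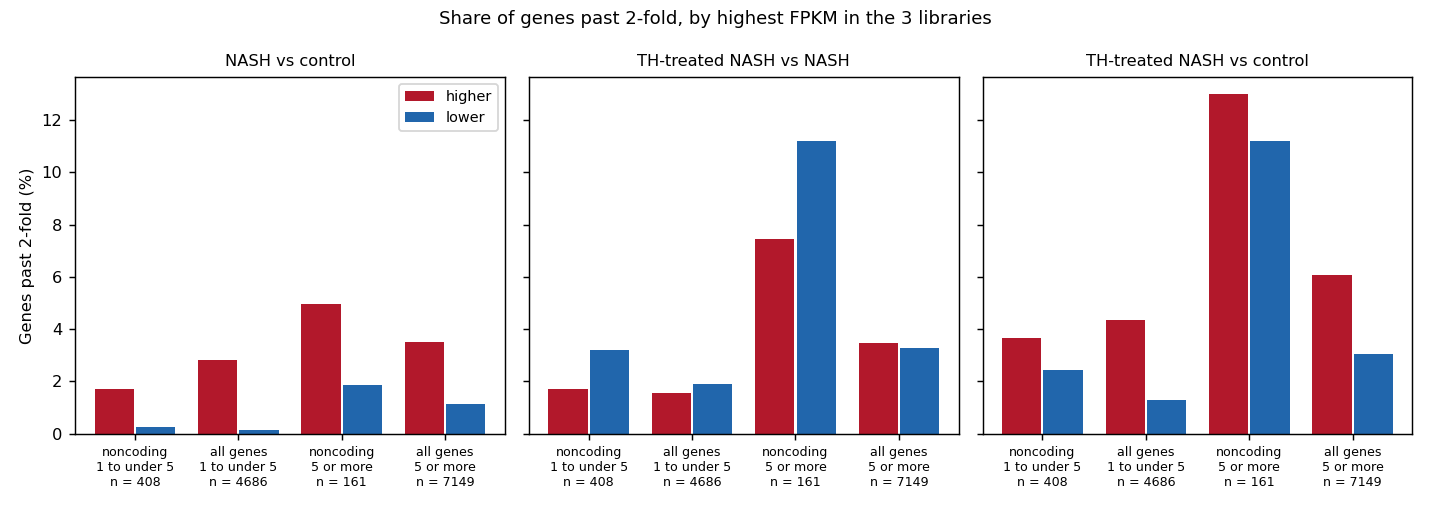
Percent of genes past 2-fold on the log2(FPKM + 1) scale, higher (red) and lower (blue), for noncoding members and for all genes at the same highest FPKM, in 3 panels for the 3 comparisons (1 library per group, no error bars). At 5 FPKM or more, 7.45% of members were higher and 11.2% lower in TH-treated NASH than NASH, against 3.47% and 3.29% of all genes.

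Most members share ground with a coding gene. The spans of 380 members overlapped a protein-coding gene, 353 of them on the opposite strand and 27 on the same strand. A further 58 were divergent, starting within 1000 bp of a coding gene on the other strand, and 131 stood apart. Exons of 316 members overlapped exons of a coding gene in M21, and 77 of these had at least 50% of their exon length there. With the strand setting of the counting not given, reads in such exons cannot be assigned to one gene.

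Across the 380 overlapping members, the log2 difference of the member and of its coding gene had Pearson's r of 0.43 (Spearman's rho 0.42) for TH-treated NASH over NASH, and 0.58 (rho 0.38) for NASH over control. Each point is a gene pair from the same libraries and may share reads, so the values are descriptions. Over the 52 overlapping members with no exon overlap, r was 0.40 (rho 0.37) and 0.44 (rho 0.23) in the same 2 comparisons. It was 0.48 (rho 0.44) and 0.68 (rho 0.51) over the 58 divergent members. Over the 131 members that stood apart it was 0.31 (rho 0.22) and 0.31 (rho 0.28), measured against the nearest coding gene.

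Large differences in a member and in its coding gene were counted together. Of the 50 members past 2-fold between TH-treated NASH and NASH, 8 had a coding gene past 2-fold in the same direction and none had one past 2-fold in the opposite direction. Over all 569 members, 23 had a coding gene past 2-fold in either direction. The numbers were 11 of 64, beside 32 of 569, for TH-treated NASH over control and 4 of 19, beside 13 of 569, for NASH over control, again with none opposite. A difference of the same sign, of any size, was found in the coding gene of 40 of 50 called members for TH-treated NASH over NASH, 48 of 64 for TH-treated NASH over control and 14 of 19 for NASH over control. Among the 10953 coding genes at 1 FPKM or more, 5015 were above 0 and 5938 below for TH-treated NASH over NASH. The numbers were 6665 and 4287 for TH-treated NASH over control, and 7637 and 3312 for NASH over control. How often members not called shared a sign with their coding gene was not counted. Gm10680 with Apoa4 and B430212C06Rik with Cidea were pairs past 2-fold in the same direction in NASH over control. Gm14493, antisense to Mid1ip1, a regulator of fatty acid synthesis, had 2.12 FPKM in TH-treated NASH, 6.86 FPKM in NASH and 7.02 FPKM in control, and Mid1ip1 had 8.63, 27.2 and 27.9 FPKM. D330041H03Rik, antisense to Abca3, had 5.38, 1.67 and 1.82 FPKM, and Abca3 had 25.2, 9.51 and 10.03 FPKM. At 1500017E21Rik the coding gene stayed within 2-fold.

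**Figure D5:**
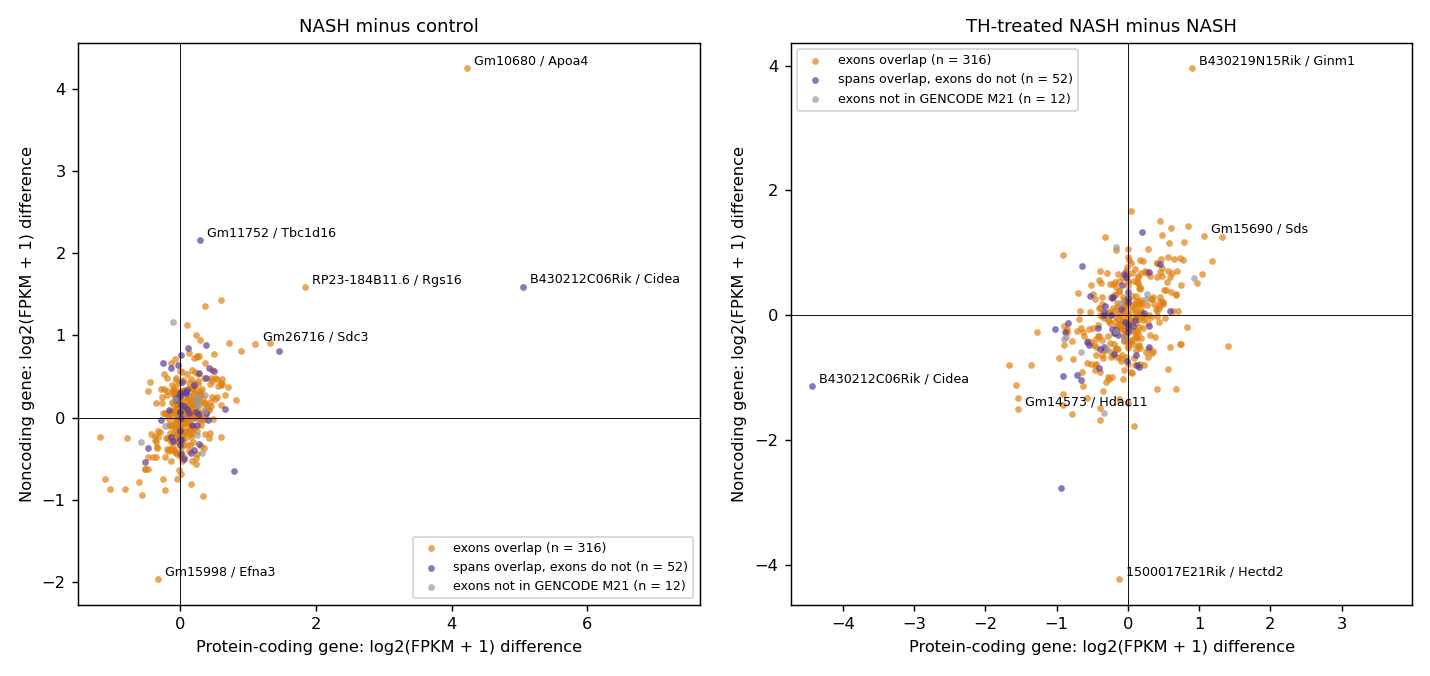
Difference in log2(FPKM + 1) of the 380 overlapping noncoding genes (vertical) against that of the coding gene they overlap most (horizontal), for NASH minus control (left) and TH-treated NASH minus NASH (right), from 1 library per group. Colours mark exon overlap in GENCODE M21. Gm10680 with Apoa4 lies high on both axes at left, and 1500017E21Rik lies low at right with Hectd2 near 0.

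Of 13 listed liver RNAs, 9 were found by name among the deposited genes, and 8 were members. Past 2-fold, 1 was higher and 3 lower in TH-treated NASH than NASH, beside 2.7% and 2.75% of all genes. Among them were Gm16551, which was higher, and Gm15622, which was lower. Gm15441, which lies antisense to Txnip and lowers it in mouse liver, had 2.42 FPKM in TH-treated NASH, 1.39 FPKM in NASH and 2.33 FPKM in control. Hnf4aos, antisense to the hepatocyte regulator Hnf4a, had 4.05, 4.69 and 7.29 FPKM, and C430002E04Rik, named Platr4 in M21, had 0.477, 0.949 and 1.23 FPKM. None of the 3 passed 2-fold on the log2(FPKM + 1) scale in any comparison, though the FPKM ratio of C430002E04Rik was 2.57-fold lower in TH-treated NASH than control (1.51 to 4.61).

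Of 16 listed widely expressed RNAs, 11 were found by name among the deposited genes, and 5 were members. On the log2(FPKM + 1) scale, Hotairm1 in NASH over control was the one past 2-fold, at 1.004, beside 3.24% of all genes higher. Tug1 had 6.13 FPKM in TH-treated NASH, 6.04 FPKM in NASH and 5.90 FPKM in control, and Firre, an X-linked RNA of nuclear organisation, had 10.3, 12.3 and 10.3 FPKM. Dleu2, host of miR-15a and miR-16-1, had 2.96, 2.26 and 2.90 FPKM. Pvt1, beside Myc, had 1.15, 1.24 and 0.458 FPKM. Its FPKM ratio was 2.70-fold for NASH over control (2.077 to 3.535) and 2.51-fold for TH-treated NASH over control (1.901 to 3.322). Airn, which silences Igf2r on the paternal chromosome in mice, was the expressed imprinted RNA among those listed, at 0.418, 1.05 and 0.560 FPKM. None of the 4 listed RNAs of X inactivation was a member, and Xist had 0.00735 FPKM in TH-treated NASH.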

How the data were processed

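Liver poly(A) RNA was measured in 3 libraries, 1 per group by title and diet. The authors deposited 1 table of FPKM per gene and library. TopHat2 and HTSeq are named, per the submitters' processing notes, with no version; build, annotation and strand setting are not named in the sources used here. FPKM times gene length gave whole fragments (within 0.01) for 100% of values in each library. Folds are FPKM ratios with exact conditional binomial (Clopper-Pearson) 95% intervals, levels have exact Poisson intervals, and calls are 2-fold on log2(FPKM + 1) with a pseudocount of 1 FPKM. TMM and median-of-ratios factors were computed from these fragments with the published formulas in Python 3.11.15 (numpy 2.4.6, pandas 2.3.3, scipy 1.17.1, matplotlib 3.10.9). The recovery of fragments, the calls and the intervals were tested on simulated data. GENCODE M21 gave later symbols, types and exons by gene ID, and RefSeq GRCm38.p6 gave promoters by symbol for 286 members.

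Members, lists and markers were chosen with earlier results of these data known. Named members were the 10 highest and 10 lowest per comparison with 2 FPKM or more in some library, the 12 most abundant, listed members, those beside the 1 FPKM limit, and their coding genes. Gm14493, D330041H03Rik and 2210013O21Rik fall outside that rule and were named after their values were seen. The alternatives tried were the pseudocount, the FPKM minimum, scaling, the fold threshold, the counting interval, gene type and overlap. A few members and their coding genes are not reported here by name but stay in all counts.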

Additional observations from a re-analysis of the deposited data

How the results depend on the processing

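No paired analysis was possible because each group has 1 library, and for the same reason no library could be left out. Counts are given as higher and lower members for TH-treated NASH over NASH, then TH-treated NASH over control, then NASH over control, against 19 and 31, 36 and 28, and 15 and 4 as reported. A pseudocount of 0.1 FPKM gave 58 and 87, 82 and 81, and 58 and 20, and a pseudocount of 5 FPKM gave 4 and 8, 5 and 9, and 3 and 1. Some alternatives keep fewer than the 569 members, so their counts stand against smaller totals. A minimum of 5 FPKM kept 161 members and gave 12 and 18, 21 and 18, and 8 and 3. A 1.5-fold threshold gave 86 and 97, 97 and 91, and 58 and 27, and a 4-fold threshold gave 1 and 2, 3 and 2, and 2 and 0. The 189 members overlapping no coding gene gave 3 and 7, 13 and 8, and 6 and 3. The 241 members without exon overlap, an alternative added after seeing the data, gave 4 and 10, 15 and 9, and 8 and 3. TMM and median-of-ratios scaling gave 8 lower in NASH over control, and counting intervals past 2-fold gave 28 higher. The median log2 difference changed sign for NASH over control at a minimum of 5 FPKM (-0.023) and under TMM and median-of-ratios scaling (-0.069 and -0.068). It changed sign for TH-treated NASH over control under TMM (-0.112), median-of-ratios (-0.104) and without the 50 most abundant genes (-0.032), and for TH-treated NASH over NASH at a minimum of 5 FPKM (0.069). Restricting to members typed noncoding in M21, also added after seeing the data, kept every count within 1.5 times. Of 168 values of 56 named members, a pseudocount of 5 FPKM moved 50 under 2-fold, and TMM moved 6 under it and 6 past it. A pseudocount of 0.1 FPKM moved 18 past it. Only values already past 2-fold can move under it, so the 50 are not to be read as a share of 168. The cause of these shifts was not tested beyond the construction of each alternative. Depth limits the scarce members: 9 had under 20 fragments in every library.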
